A study of Mus musculus with 2 samples.

Results

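Chemokine receptors are the subject here: *Ccr1*, *Ccr2*, *Ccr7*, *Ccr9*, *Cx3cr1*, *Cxcr2*, *Cxcr4*, *Cxcr5* and *Cxcr6*, a list of 9 genes out of the 32285 in the tables of both libraries. They were taken by name, with earlier results of these data known. They are described over 14 classes of immune cells and by the overlap of *Ccr2* and *Cx3cr1* in the same cells. Live CD45+ cells (CD45 marks immune cells, and 7-AAD stains dead ones) were sorted from mouse hearts for single-cell RNA sequencing (scRNA-seq). Every heart was infarcted at postnatal day 2 (myocardial infarction, MI), and collection followed after 7 days, when the mice were 9 days old (P2MI7dpi). The WT library held cells of 5 pooled wild-type hearts, and the KO library those of 5 pooled *Lyve1* knockout hearts. The KO is described in the study as global, so LYVE-1, a hyaluronan receptor of lymphatic endothelium and some macrophages, is absent from all cells and not from macrophages alone. No genotype had a second library, so the counts used here allowed no test between genotypes, and cells are not replicates. The study assigned cells to single hearts from reads and tested cell abundance between genotypes, which was not repeated here. All 95% intervals (exact Poisson for levels, Clopper-Pearson for shares) describe how precisely molecules or cells were counted and leave out variation from heart to heart. Those of levels and their ratios treat molecules as independent counts, so they also leave out variation from cell to cell. For a count of 0 the upper limit given is instead that of 3 counts out of the total.

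Chemokine receptors are G protein-coupled receptors that steer leukocytes along gradients of small secreted proteins, the chemokines. CCR2 and its ligands of the monocyte chemoattractant group bring monocytes from bone marrow into injured tissue, CX3CR1 binds the membrane-bound ligand CX3CL1 and marks patrolling monocytes and many tissue macrophages, and CXCR2 recruits neutrophils. In the heart, a macrophage without CCR2 is usually counted as resident, and a macrophage with CCR2 as derived from monocytes. CXCR4 holds cells near its ligand CXCL12, CCR7 and CXCR5 place lymphocytes and dendritic cells in lymphoid tissue, CCR9 is the receptor of thymus and gut, and CXCR6 marks tissue lymphocytes.

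Of the 9 genes, 6 lie on chromosome 9, 2 on chromosome 1 and *Ccr7* on chromosome 11 (GRCm38). *Ccr9* (9:123678439-123784330), *Cxcr6* (9:123806475-123811760), *Ccr1* (9:123962124-123968692) and *Ccr2* (9:124101950-124113557) share a stretch of 435.1 kb with *Xcr1*, *Ccr1l1* and *Ccr3*, receptors outside the list. *Cxcr6* starts 22.1 kb past the end of *Ccr9*. Receptors of this family can be close in sequence, as *Ccr1* is to *Ccr1l1* and *Ccr3*, so the split of reads between relatives is uncertain. *Cx3cr1* (9:119901616-120069879) lies 3.61 Mb before *Ccr9*, and *Cxcr5* (9:44511787-44561877) far from both. *Cxcr2* (1:74153989-74161246) and *Cxcr4* (1:128588199-128592293) are on chromosome 1, and *Ccr7* is at 11:99144196-99155077.

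Promoters are shown for the receptors whose class patterns are set side by side here: the *Ccr2* and *Cx3cr1* pair of mononuclear phagocytes, the *Ccr1* and *Cxcr2* pair of neutrophils, and the neighbors *Ccr9* and *Cxcr6*, whose levels peaked in different classes. Each line holds the 250 bases before the transcript start in RefSeq (GRCm38.p6), 5′ to 3′ on the strand of the gene, and 7 of the 9 genes had an entry. For *Ccr9*, *Cx3cr1* and *Ccr2* that start lies inside the span given above, which is the union of annotated transcripts, so these lines lie within it wholly or for the most part. Capitals mark matches on either strand to the core letters of a PU.1 site (GAGGAA, reverse TTCCTC), a RUNX site (TGTGGT, reverse ACCACA) or an E-box (CAGGTG, reverse CACCTG).
Ccr2 (chr9:124101933-124102182, plus strand): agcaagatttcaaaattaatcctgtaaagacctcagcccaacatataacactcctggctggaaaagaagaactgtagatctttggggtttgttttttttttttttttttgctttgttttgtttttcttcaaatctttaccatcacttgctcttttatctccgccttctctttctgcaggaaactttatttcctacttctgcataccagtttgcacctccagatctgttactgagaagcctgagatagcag
Cx3cr1 (chr9:120068297-120068546, minus strand): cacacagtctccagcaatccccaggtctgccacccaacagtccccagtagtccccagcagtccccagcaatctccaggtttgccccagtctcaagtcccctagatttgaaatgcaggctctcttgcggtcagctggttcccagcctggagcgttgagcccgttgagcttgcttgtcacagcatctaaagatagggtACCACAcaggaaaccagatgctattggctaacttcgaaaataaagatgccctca
Ccr1 (chr9:123968693-123968942, minus strand): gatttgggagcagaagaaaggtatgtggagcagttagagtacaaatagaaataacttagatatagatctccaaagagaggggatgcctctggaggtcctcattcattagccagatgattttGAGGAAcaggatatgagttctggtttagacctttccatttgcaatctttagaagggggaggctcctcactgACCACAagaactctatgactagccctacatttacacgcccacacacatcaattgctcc
Cxcr2 (chr1:74153744-74153993, plus strand): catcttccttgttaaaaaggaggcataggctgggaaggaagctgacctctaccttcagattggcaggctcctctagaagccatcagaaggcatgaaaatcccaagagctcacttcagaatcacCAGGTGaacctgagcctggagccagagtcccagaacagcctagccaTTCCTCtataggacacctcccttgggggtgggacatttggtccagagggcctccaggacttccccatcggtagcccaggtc
Ccr9 (chr9:123766961-123767210, plus strand): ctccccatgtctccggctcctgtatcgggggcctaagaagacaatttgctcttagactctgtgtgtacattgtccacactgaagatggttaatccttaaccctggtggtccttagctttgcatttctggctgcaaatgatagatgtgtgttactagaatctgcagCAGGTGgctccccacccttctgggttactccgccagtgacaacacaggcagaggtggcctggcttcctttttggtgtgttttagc
Cxcr6 (chr9:123806227-123806476, plus strand): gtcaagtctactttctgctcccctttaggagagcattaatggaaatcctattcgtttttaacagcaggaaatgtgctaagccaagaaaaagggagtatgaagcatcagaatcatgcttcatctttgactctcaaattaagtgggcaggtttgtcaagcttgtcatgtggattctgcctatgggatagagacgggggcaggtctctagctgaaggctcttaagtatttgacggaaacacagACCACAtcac
No 2 matches overlap in the lines above. The PU.1 letters were present in the *Ccr1* and *Cxcr2* promoters and in 23.3% of all 32851 promoters of that length. The RUNX letters were in those of *Ccr1*, *Cx3cr1* and *Cxcr6* and in 14% of all, and the E-box letters in those of *Ccr9* and *Cxcr2* and in 17.2% of all. The C/EBP letters TTGCNNAA were in none of the 7 and in 9.6% of all promoters. These are matches of letters, and binding was not measured.

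The tables held 67968938 WT and 61555917 KO unique molecular identifiers (UMIs), which count single RNA molecules. After limits on genes, UMIs and mitochondrial share and removal of likely doublets, 4187 WT cells (median 11106 UMIs) and 3391 KO cells (median 12856 UMIs) were kept. *Lyve1* was at 247 CPM (counts per 1000000 UMIs) in the WT library and 13.1 CPM in the KO library. Cells were clustered without any chemokine receptor among the genes used, and each cluster took a name, written X-like, from lists of marker genes that hold none either. Each named cluster had at least 8 of its markers in 25% or more of its cells. The named immune classes held 3019 WT and 2598 KO cells. A further 1133 WT (27.1%) and 750 KO cells (22.1%) had no name, most of them of low depth (medians 1518 and 1081.5 UMIs), and 3 kept barcodes occurred in both libraries. Levels are UMIs of a receptor divided by all UMIs of the same cells, as CPM. Shares of cells with a UMI were taken after each cell was thinned to 5500 UMIs, with shallower cells left out. Levels are compared within a gene and not between genes.

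**Figure D1:**
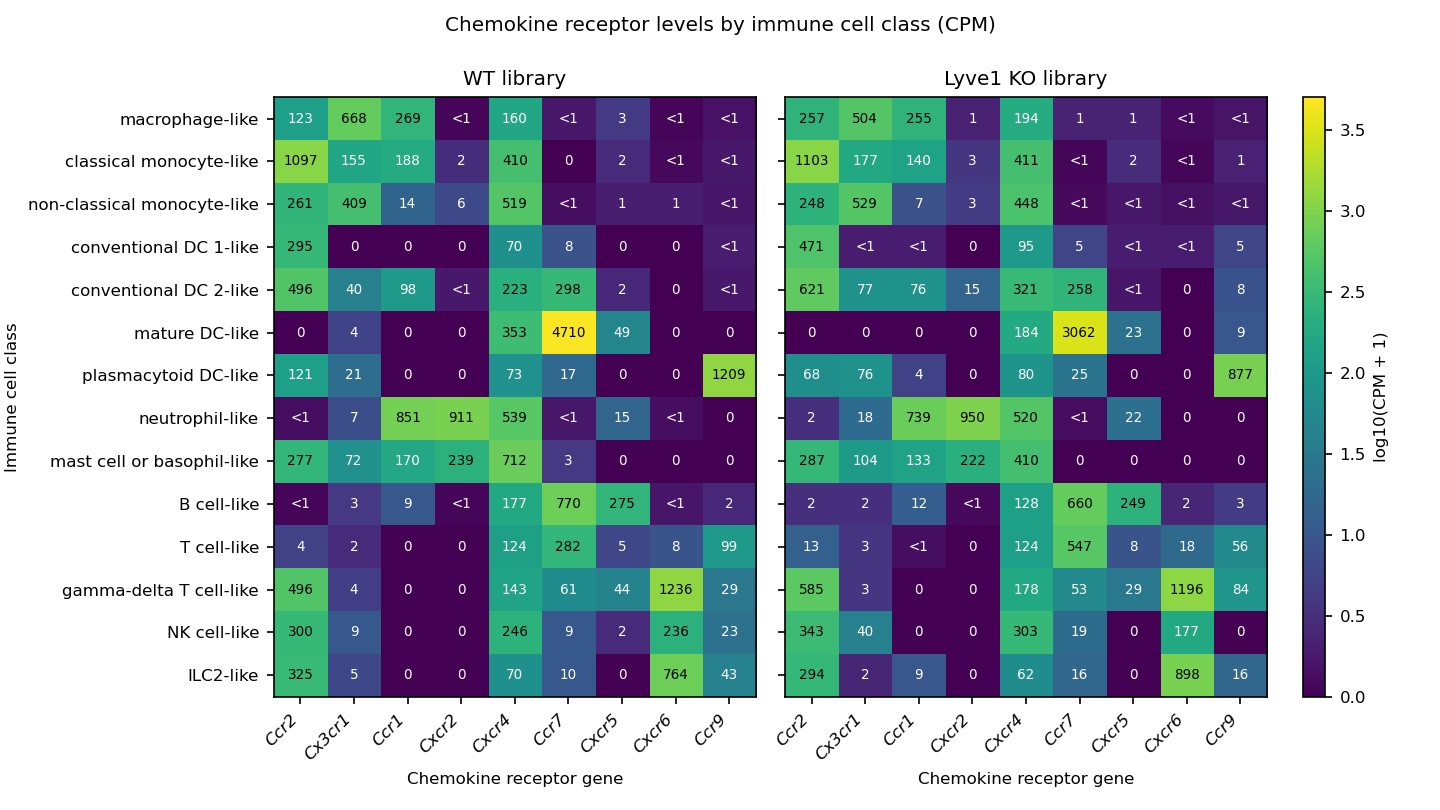
Level of each receptor (columns) in each of the 14 immune classes (rows) in the WT and KO libraries; numbers are CPM and the color is log10(CPM + 1). *Ccr2* peaked in classical monocyte-like, *Cx3cr1* in macrophage-like or non-classical monocyte-like, *Cxcr2* in neutrophil-like, *Ccr7* in mature dendritic cell-like, *Cxcr6* in gamma-delta T cell-like and *Ccr9* in plasmacytoid dendritic cell-like cells, whereas *Cxcr4* was present in every class.

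*Ccr2* was highest in classical monocyte-like cells, at 1097 CPM (1070–1126) in the WT library and 1103 CPM (1076–1130) in the KO library, above every other class in both. Conventional dendritic cell (DC) 2-like cells followed at 496 (WT) and 621 CPM (KO), and gamma-delta T cell-like cells at 496 and 585 CPM, with overlapping intervals between these classes. The receptor was thus not confined to myeloid cells. NK cell-like cells had 300.45 (WT) and 343 CPM (KO), group 2 innate lymphoid cell (ILC2)-like cells 325 and 294 CPM, and conventional DC 1-like cells 295 and 471 CPM. Non-classical monocyte-like cells were at 261 and 248 CPM. Macrophage-like cells were at 123 (119–127, WT) and 257 CPM (250–264, KO), which put them below the non-classical monocyte-like cells in WT and level with them within counting error in KO. B cell-like cells, which should lack *Ccr2*, were at 0.175 and 2.196 CPM, neutrophil-like cells at 0.353 and 2.31 CPM, and no UMI was found in mature DC-like cells. As a share of cells at the thinned depth, 96.1% of 229 WT (6 left out) and 95.7% of 235 KO classical monocyte-like cells (2 left out) had a *Ccr2* UMI, against 0.329% of 304 and 0.962% of 416 B cell-like cells. Without thinning these shares were 99.1% and 99.6% of the monocyte-like and 0.302% and 1.80% of the B cell-like cells. Median depths were 22719 and 25065 UMIs in the former and 12641 and 14254 UMIs in the latter.

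*Cx3cr1* was highest in mononuclear phagocytes. In WT it was highest in macrophage-like cells, at 668 CPM (659–676), before non-classical monocyte-like cells at 409 CPM (385–433) and classical monocyte-like cells at 155 CPM (144–165). In KO the order of the leading classes was not resolved, with 529 CPM (508–552) in non-classical monocyte-like and 504 CPM (495–514) in macrophage-like cells, and classical monocyte-like cells again lower at 177 CPM (166–188). Macrophage-like cells gave 88.9% of all *Cx3cr1* UMIs in WT and 72.8% in KO. Conventional DC 2-like cells were at 40.3 and 77.2 CPM, whereas conventional DC 1-like cells had no UMI in WT and 0.998 CPM in KO. Among lymphoid classes, B cell-like cells were at 3.15 and 2.31 CPM and the T cell class at 1.88 and 2.83 CPM. A *Cx3cr1* UMI was found in 79.5% of 1308 thinned WT (111 left out) and 68.9% of 679 thinned KO macrophage-like cells (65 left out), or 86.3% and 77.0% without thinning at medians of 22635 and 24846 UMIs. In B cell-like cells the thinned shares were 2.303% and 1.202%, and 5.14% and 2.03% without thinning.

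Macrophage-like cells were not uniform in either gene. They formed 9 clusters, and *Ccr2* was concentrated in the cluster led by *Spp1*, *Arg1* and *Fn1*, genes of infarct macrophages (osteopontin, arginase and fibronectin). There *Ccr2* was at 635 (WT) and 785 CPM (KO), and *Cx3cr1* at 299 and 279 CPM. That cluster was 13.2% of macrophage-like cells in WT (187 of 1419) and 25.1% in KO (187 of 744), and it gave 70.7% and 83.6% of their *Ccr2* UMIs. The largest cluster in WT, led by complement *C1qa* with the Fc receptor-like gene *Fcrls*, had less *Ccr2* and more *Cx3cr1* than the *Spp1* cluster, with *Ccr2* at 60.7 and 132 CPM and *Cx3cr1* at 1066 and 1186 CPM. The cluster with the ficolin gene *Fcna* and *Folr2* had the lowest *Ccr2* value of the 9 in both libraries, at 6.93 and 0.507 CPM, while its *Cx3cr1* was 384 and 341 CPM. The cluster led by *Saa3*, an acute-phase gene, also had *Arg1* and *Fn1* among its leading genes. It was low for both receptors, with *Ccr2* at 33.7 and 21.4 CPM and *Cx3cr1* at 50.7 and 56.0 CPM. In the 5 other clusters *Ccr2* ran from 8.03 to 55.2 CPM in WT and from 5.84 to 212 CPM in KO, the last in 17 cells of the cluster led by *Cd207*.

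Non-classical monocyte-like cells formed 2 clusters. The larger, led by *Ace*, a marker of patrolling monocytes (183 WT and 211 KO cells), had *Cx3cr1* at 427 and 575 CPM and *Ccr2* at 206 and 246 CPM. The smaller, with *Ldlrad3* among its leading genes (63 WT and 83 KO cells of 3843 and 4757 median UMIs), had *Cx3cr1* at 279 and 237 CPM and *Ccr2* at 641 and 259 CPM. *Ccr2* in the *Ace* cluster was thus above the value of every macrophage-like cluster but the *Spp1* cluster in both libraries.

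**Figure D2:**
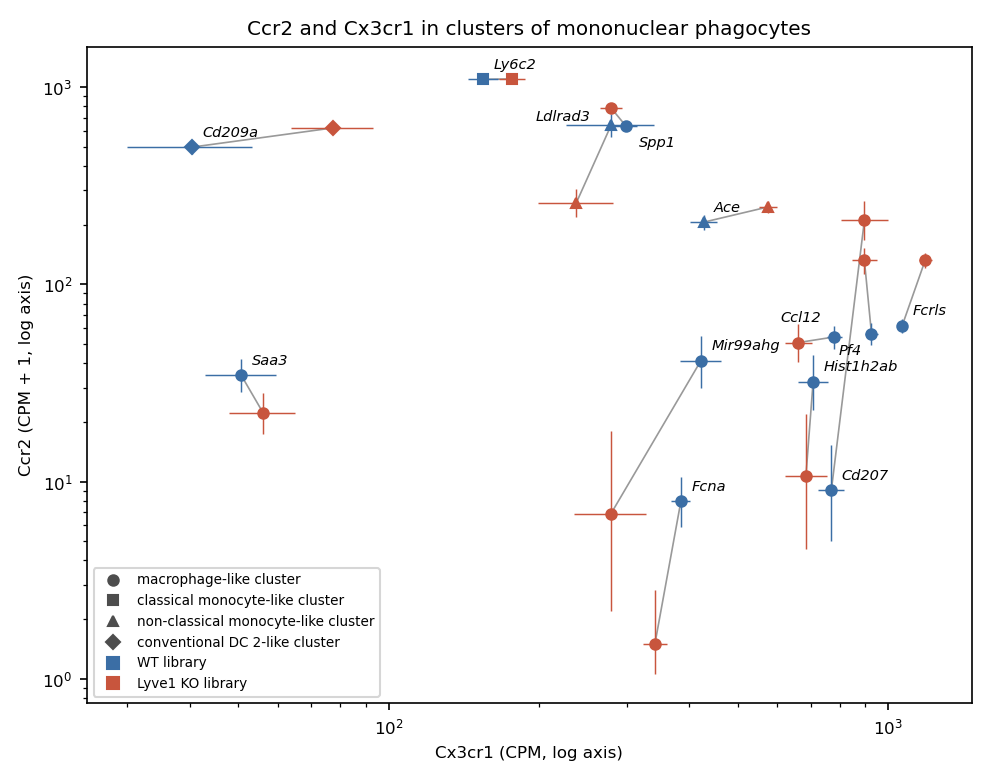
*Cx3cr1* (x axis, CPM) against *Ccr2* (y axis, CPM + 1) in the macrophage-like, monocyte-like and conventional DC 2-like clusters, both on log axes, each cluster named by 1 of its 10 leading genes; bars are 95% counting intervals and gray lines join the WT (blue) and KO (red) values of a cluster. The classical monocyte-like cluster has the most *Ccr2* (1097 and 1103 CPM), the *Spp1* cluster the most among macrophage-like clusters (635 and 785 CPM), and the *Fcrls* cluster the most *Cx3cr1* (1066 and 1186 CPM).

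Both transcripts were often found in the same cell. Of thinned macrophage-like and monocyte-like cells, 18.5% in WT (16.7–20.4, 319 of 1725) and 26.0% in KO (23.4–28.6, 300 of 1156) had a UMI of each, with 175 and 119 shallower cells left out. Without thinning the shares were 26.8% and 37.9%. If both genes were drawn independently across these cells, the product of the single thinned shares would be 22.7% and 29.6%. The observed overlap was 0.815 and 0.875 of the product, against 0.960 and 1.02 without thinning. Among macrophage-like cells alone, 11.8% in WT (10.1–13.6, 154 of 1308) and 15.9% in KO (13.2–18.9, 108 of 679) had both, or 17.4% and 21.1% without thinning. Of macrophage-like cells with *Ccr2*, 68.1% in WT and 62.1% in KO also had *Cx3cr1*, and of those with *Cx3cr1*, 14.8% and 23.1% also had *Ccr2*. A macrophage with *Ccr2* was thus more often than not also a *Cx3cr1* cell in these libraries. The class as a whole had *Cx3cr1* more often still, in 79.5% and 68.9% of thinned cells, and *Ccr2* in 17.3% and 25.6%.

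In classical monocyte-like cells the overlap was 47.2% in WT (40.6–53.8) and 46.8% in KO (40.3–53.4), the highest of the classes shown. Nearly every *Cx3cr1* cell there also had *Ccr2* (97.3% and 93.2%), while 49.1% and 48.9% of the *Ccr2* cells had *Cx3cr1*. Non-classical monocyte-like cells were the reverse: 79.2% and 82.0% of their *Ccr2* cells had *Cx3cr1*, and 37.5% and 39.4% of their *Cx3cr1* cells had *Ccr2*. Their overlap was 30.3% (23.8–37.4) and 33.9% (27.9–40.2). In conventional DC 2-like cells it was 16.7% of 36 and 28.6% of 35. Conventional DC 1-like, gamma-delta T cell-like, ILC2-like and NK cell-like cells had *Ccr2* with at most 1 cell of overlap per class and library at the thinned depth. In B cell-like cells it was 0 of 304 and 0 of 416, which allows a share of up to 0.987% and 0.721%.

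Within the 3 clusters with the most cells with both among macrophage-like and non-classical monocyte-like cells, the overlap came close to the product of the single shares. The ratio of observed to product was 0.997 in WT and 0.989 in KO in the *Fcrls* cluster, 1.02 and 1.01 in the *Spp1* cluster, and 0.994 and 0.957 in the *Ace* cluster. Nearly all cells of the *Fcrls* cluster had *Cx3cr1*, which holds its ratio near 1. In the cluster with *Ldlrad3* the ratio was 0.917 and 0.807, from only 5 of 22 WT and 6 of 37 KO cells with both. Without thinning it was 1.2 and 1.117 there. In other clusters with few such cells the ratio varied widely. In the *Saa3* cluster it was 2.31 in WT, from 3 cells, and no cell had both in KO. For macrophage-like cells as a whole it was 0.857 and 0.901, or 0.961 and 0.957 without thinning. In the *Spp1* cluster 39.2% of 171 WT and 41.3% of 179 KO cells had both, whereas in the *Fcna* cluster it was 1.04% of 192 and 0 of 130, which allows up to 2.31%. At the thinned depth, cells with both were thus fewer than the product over the whole class and near it within these 3 clusters. Without thinning the whole class was nearer to the product. On the scale of UMIs per thinned cell, macrophage-like cells with *Cx3cr1* had a mean of 0.543 *Ccr2* UMIs in WT against 1.23 in those without, and 1.297 against 1.63 in KO. All cells with both numbered 335 in WT and 320 in KO. Of these, 46.0% and 33.8% were macrophage-like, 32.2% and 34.4% classical monocyte-like and 17.0% and 25.6% non-classical monocyte-like.

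**Figure D3:**
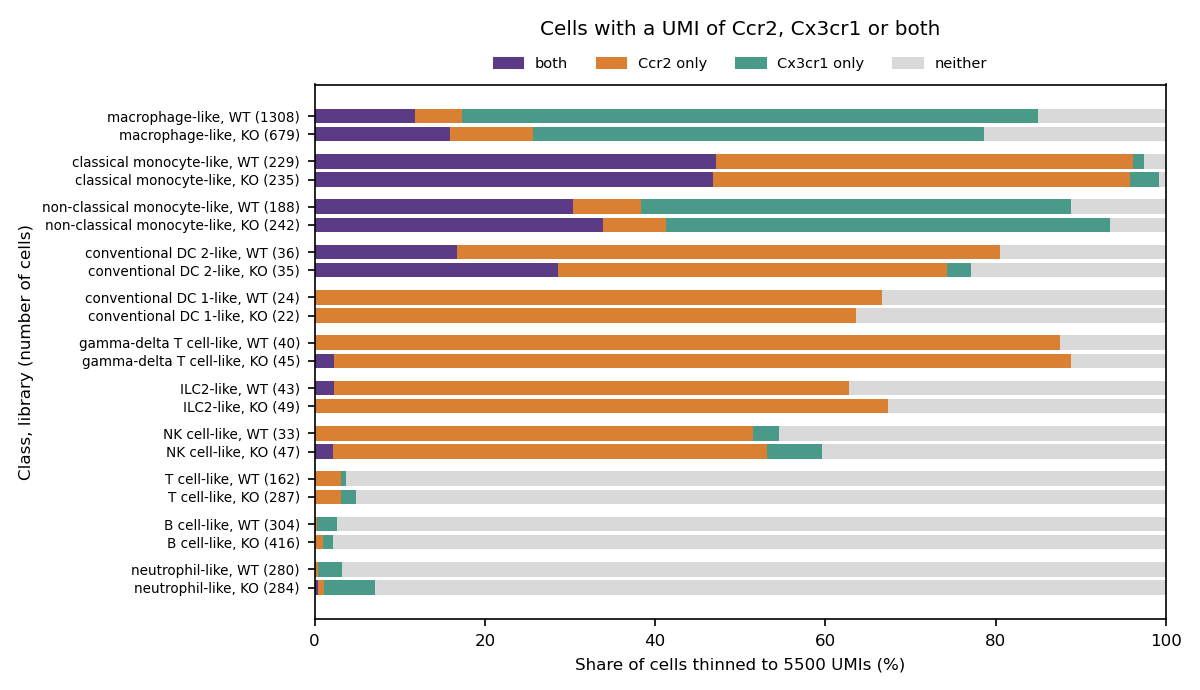
Share of cells (x axis, %) with a UMI of both *Ccr2* and *Cx3cr1*, of 1 of them or of neither in 11 classes of the WT and KO libraries, after thinning to 5500 UMIs; the number of cells is in parentheses. Cells with both made up 47.2% (WT) and 46.8% (KO) of classical monocyte-like cells, against 11.8% and 15.9% of macrophage-like cells and none of the B cell-like cells.

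The receptors of inflammatory recruitment, *Ccr1* and *Cxcr2*, met in neutrophil-like cells but differed elsewhere. *Cxcr2*, the receptor for CXCL1, CXCL2 and related chemokines, was at 911 (876–947, WT) and 950.0 CPM (916–985, KO), and these cells gave 94.9% and 94.8% of all its UMIs. A *Cxcr2* UMI was found in 93.9% of 280 thinned WT (71 left out) and 97.2% of 284 thinned KO neutrophil-like cells (52 left out), and in 92.9% and 93.8% without thinning at medians of 7656 and 7961.5 UMIs. Macrophage-like cells, as cells expected to lack it, had it in 0.0765% and 0.295% of thinned cells and in 0.352% and 0.806% of all. *Ccr1*, a receptor for CCL3, CCL5, CCL6 and CCL9, was also highest in neutrophil-like cells, at 851 CPM (817–885) and 739 CPM (708–770). It reached further than *Cxcr2*, with 269 CPM (263–274) and 255 CPM (248–262) in macrophage-like and 188 CPM (177–200) and 140 CPM (130–149) in classical monocyte-like cells. Since macrophage-like cells were many, they gave 69.7% of *Ccr1* UMIs in WT and 59.9% in KO. Non-classical monocyte-like cells had only 14.3 and 7.40 CPM, so that *Ccr1* was higher in the classical and *Cx3cr1* in the non-classical class. A *Ccr1* UMI was in 61.5% and 60.5% of thinned macrophage-like cells, and in 42.4% and 34.9% of thinned classical and 2.66% and 1.65% of thinned non-classical monocyte-like cells. In T cell-like cells it was 0 of 162, which allows up to 1.85%, and 0.348% of 287.

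Neutrophil-like cells themselves graded by receptor. The largest cluster, led by *S100a9* (250 WT and 266 KO cells), had *Cxcr2* at 1107 (WT) and 1160 CPM (KO). The cluster led by *Cstdc4* with *Il1rn* and *Acod1* (79 and 42 cells) had less *Cxcr2*, 688 and 640.4 CPM, but the highest *Ccr1* of the 3, 1093 and 1039 CPM. The small cluster led by the granule genes *Ngp* and *Camp*, which are made in immature neutrophils (22 and 28 cells), was lowest for all of them, with *Cxcr2* at 411 and 430.0 CPM, *Ccr1* at 211 CPM in both and *Cxcr4* at 127 and 111 CPM. In the *S100a9* cluster *Cxcr4* was at 664 and 642 CPM, and in the *Cstdc4* cluster at 487 and 600.2 CPM.

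Across macrophage-like clusters *Ccr1* was more even than *Ccr2* or *Cx3cr1*. It was highest in the *Fcna* cluster, at 378 and 326 CPM, and in the *Spp1* cluster, at 309 and 278 CPM, which stood at opposite ends for *Ccr2*. The lowest WT value was 127 CPM, in the cluster led by the histone gene *Hist1h2ab*, and the lowest KO value was 105 CPM, in the shallow cluster led by *Mir99ahg* (medians 6049 and 4618 UMIs).

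*Cxcr4*, the receptor for CXCL12, was found in all 14 classes of both libraries. The mast cell or basophil-like class, described further on, led in WT at 712 CPM (622–811) but not in KO, at 410.2 CPM (327–508). Among the other classes the level was highest in neutrophil-like cells at 539 CPM (512–567) and 520 CPM (494–546), and in non-classical monocyte-like cells at 519 CPM (493–546) and 448 CPM (428–468). The first pair overlapped in WT and was resolved in KO. Classical monocyte-like cells followed at 410 CPM (393–427) and 411 CPM (395–427), and macrophage-like cells were lower at 160 CPM (156–164) and 194 CPM (188–200). Among lymphoid classes the range ran from ILC2-like cells at 70.4 and 61.9 CPM to NK cell-like cells at 246 and 303 CPM, with B cell-like cells at 177 and 128 CPM and T cell-like cells at 124 CPM in both. In thinned cells a *Cxcr4* UMI was present in 81.8% and 80.6% of neutrophil-like, 60.7% and 60.9% of classical monocyte-like, 32.5% and 44.6% of macrophage-like and 25.6% and 24.5% of ILC2-like cells. No class here is known to lack *Cxcr4*, so no class served as its background. Among macrophage-like clusters the *Spp1* cluster led in WT, with 412 CPM against 381 CPM in KO, and the *Cd207* cluster led in KO, with 440.1 CPM in 17 cells against 227 CPM in 67 WT cells. The *Fcrls* cluster had 86.6 and 120.3 CPM.

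Of the receptors of lymphoid tissue, *Ccr7* was highest in mature DC-like cells, at 4709.8 (4430–5003, WT) and 3062 CPM (2834–3304, KO). That class was small and unequal, with 22 WT cells of 3482 median UMIs and 5 KO cells of 45853, so its levels rest on few cells, and 1 KO cell gave 33.4% of the KO UMIs. B cell-like cells were next, at 770.3 CPM (748–793) and 660.3 CPM (643–678), and gave 55.4% and 56.9% of all *Ccr7* UMIs. T cell-like cells were at 282 CPM (266–298) and 547 CPM (527–567). Conventional DC 2-like cells had 298 and 258 CPM, close to T cell-like cells in WT and below them in KO. The thinned share with *Ccr7* was 77.6% of 304 and 76.0% of 416 B cell-like cells (27 and 28 left out; 85.2% and 87.2% unthinned), and 53.7% of 162 and 76.7% of 287 T cell-like cells (12 and 18 left out; 59.2% and 82.6% unthinned, medians 17070 and 14420 UMIs). In macrophage-like cells it was 0.612% and 0.736%, or 1.48% and 1.34% unthinned.

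*Cxcr5*, which guides B cells to follicles, was nearly restricted to B cell-like cells, which gave 80.9% of its UMIs in WT and 87.4% in KO. They had 275 CPM (261–289) and 249 CPM (239–260), and 65.8% and 63.2% of the thinned cells had a UMI (82.8% and 80.6% unthinned). The next levels with 20 or more UMIs in both libraries were those of gamma-delta T cell-like cells (43.9 and 28.9 CPM) and neutrophil-like cells (15.2 and 21.8 CPM). In KO, 1 neutrophil-like cell gave 29 of the 66 *Cxcr5* UMIs of its class, and 1 gamma-delta T cell-like cell 9 of 20. Macrophage-like cells were at 3.28 and 1.36 CPM, with a UMI in 1.68% and 0.589% of thinned cells. B cell-like cells formed 2 clusters that ordered the receptors in different ways. These clusters were ranked by a list of B-1 cell genes, scored as the mean log2 level relative to the other clusters. The cluster with the lower level of this list (214 WT and 273 KO cells) had *Ccr7* at 1160.4 and 852 CPM and *Cxcr4* at 263 and 209 CPM. The cluster with the higher level of that list, which was also deeper (117 and 171 cells, medians 25460 and 27754 UMIs), had *Ccr7* at 518 and 553 CPM and *Cxcr4* at 121 and 81.8 CPM. *Cxcr5* was higher in the latter, at 297 and 263 CPM against 239.9 and 226 CPM.

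T cell-like cells divided more sharply. *Ccr7* was at 999 and 832 CPM in the cluster with *Lef1* and *Dapl1* (70 WT and 179 KO cells) and at 515 and 584 CPM in the cluster with *Cd8b1* and *Nkg7* (44 and 91 cells). In the cluster led by *Trbc2* with *Dntt*, *Arpp21* and histone genes (60 and 35 cells, medians 42135 and 37087 UMIs) it was at 0.377 and 57.5 CPM. *Dntt* and *Arpp21* are genes of developing lymphocytes, and this cluster had the highest *Ccr9* of the T cell-like clusters, at 127 and 131 CPM. It gave 80.2% and 62.8% of the *Ccr9* UMIs of T cell-like cells, and 62.4% and 26.9% of all their UMIs. In the *Lef1* cluster *Ccr9* was at 76.3 and 31.8 CPM and in the *Cd8b1* cluster at 29.1 and 24.4 CPM.

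**Figure D4:**
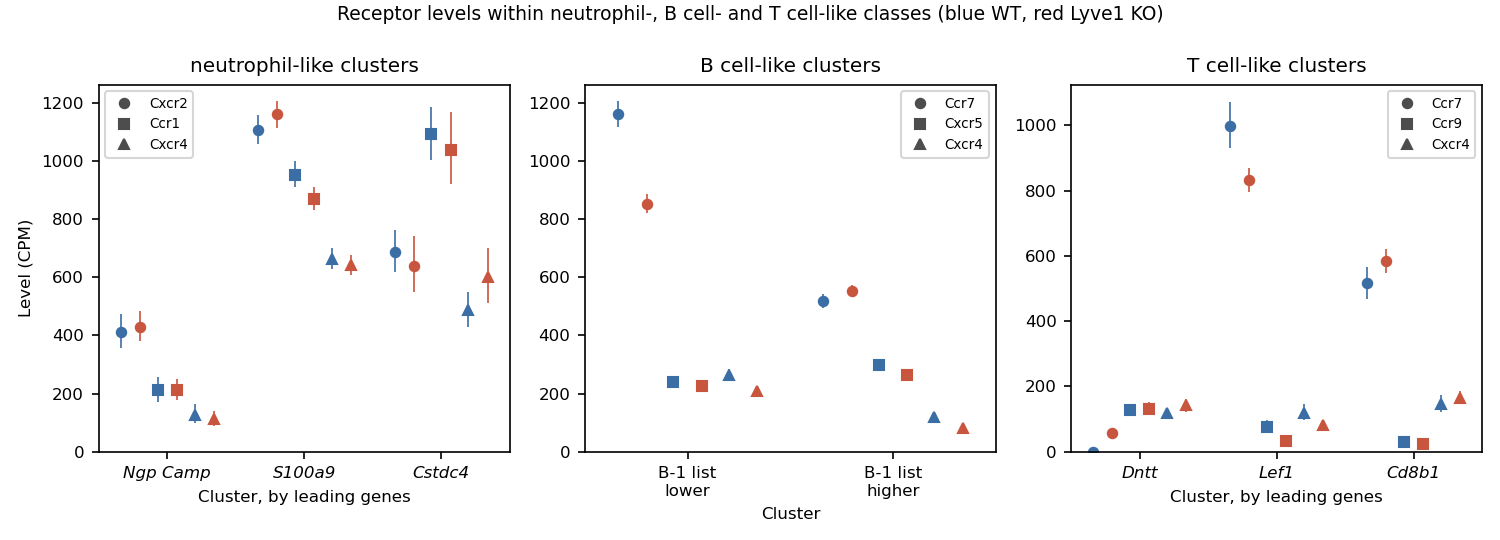
Receptor levels (y axis, CPM) in the clusters of 3 classes (neutrophil, B cell and T cell), WT in blue and KO in red, with 95% counting intervals. *Ccr7* was 999 and 832 CPM in the T cell-like cluster with *Lef1* and 0.377 and 57.5 CPM in the cluster with *Dntt*, and *Cxcr2* was 411 and 430.0 CPM in the *Ngp* and *Camp* cluster against 1107 and 1160 CPM in the *S100a9* cluster.

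The dendritic cell-like classes differed in their receptors, each read from few cells. Conventional DC 1-like cells, the cross-presenting type, had *Ccr2* (295 and 471 CPM) and *Cxcr4* (70.03 and 94.8 CPM), with every other receptor at 7.78 CPM or lower. Conventional DC 2-like cells, which present antigen to helper T cells, had *Ccr2*, *Ccr7* and *Cxcr4* (223 and 321 CPM), with *Ccr1* at 98.4 and 75.9 CPM and *Cx3cr1* at 40.3 and 77.2 CPM. Mature DC-like cells had no *Ccr1*, *Ccr2*, *Cxcr2* or *Cxcr6* UMI in either library, and 1 cell gave 87.3% of their WT *Cxcr4* UMIs. Plasmacytoid DC-like cells, the interferon producers, had *Ccr9* and some *Ccr2* (121 and 67.8 CPM), of which 1 WT cell gave 51.4%, beside *Cxcr4* (72.8 and 80.5 CPM) and *Cx3cr1* (20.8 and 76.2 CPM, with 66.7% of the UMIs from 1 cell in each library).

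Among named classes *Ccr9* was highest in plasmacytoid DC-like cells, at 1209 (1086–1343, WT) and 877 CPM (761–1004, KO), from 16 and 11 cells. A UMI was found in 14 of 15 thinned WT and 7 of 9 thinned KO cells. T cell-like cells followed at 98.5 CPM (89.3–108) and 56.2 CPM (50.02–62.98), with gamma-delta T cell-like cells at 28.6 CPM (16.0–47.2) and 83.8 CPM (63.6–108), so that the order of these classes was not the same in the libraries. It was also high in an unnamed cluster of low depth led by *Arpp21*, *Themis* and *Rag1* (66 WT and 39 KO cells), at 499 CPM (411–601) and 1102 CPM (989–1225), below plasmacytoid DC-like cells in WT and above their value in KO, with overlapping intervals. That cluster had *Ccr7* at 2 UMIs in WT and 0 in KO, as the *Dntt* cluster was low for *Ccr7*. In macrophage-like cells 0.153% and 0.147% of thinned cells had a *Ccr9* UMI.

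*Cxcr6*, the receptor for CXCL16, was the receptor of tissue lymphocytes in these data. Gamma-delta T cell-like cells had 1236 CPM (1143–1335) and 1196 CPM (1116–1281), ILC2-like cells 764 CPM (709–822) and 898 CPM (848–951), and NK cell-like cells 236 CPM (197–281) and 177 CPM (150–207), 3 levels that did not overlap in either library. T cell-like cells were far lower, at 7.996 and 18.1 CPM, and macrophage-like cells at 0.148 and 0.292 CPM. All thinned gamma-delta T cell-like cells had a UMI (40 of 40 and 45 of 45), as did 42 of 43 and 47 of 49 ILC2-like cells and 15 of 33 and 18 of 47 NK cell-like cells, against 0.153% and 0.442% of macrophage-like cells. The leading genes of the gamma-delta cluster were *Trdv4*, *Cd163l1*, *Tcrg-V6* and *Il17a*, and those of the ILC2 cluster were *Areg*, *Il13* and *Il5*. Both classes carried *Ccr2* beside *Cxcr6*. The most frequent set of detected receptors was *Ccr2* with *Cxcr6* alone, in 47.5% of 40 and 33.3% of 45 gamma-delta T cell-like and 41.9% of 43 and 51.0% of 49 ILC2-like cells.

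The class called mast cell or basophil-like held cells of both kinds, and the receptors divided with them. Cells were split by a UMI of *Cma1*, a mast cell protease, a split chosen after the values were seen. The 7 WT and 7 KO cells with *Cma1* had *Cx3cr1* at 237 and 234 CPM, from 6 and 4 cells, and no UMI of *Cxcr2*, *Ccr1* or *Mcpt8* in either library. The 22 WT and 8 KO cells without *Cma1* had the basophil protease *Mcpt8* at 1604 and 3413 CPM. In the latter cells *Cxcr4* was at 904 and 661 CPM, *Ccr2* at 352 and 471 CPM, *Cxcr2* at 304 and 372 CPM and *Ccr1* at 216 and 223 CPM, while *Cx3cr1* was at 28.0 and 16.5 CPM. *Cxcr2* of this class was therefore in the cells without *Cma1*, and rests on 22 WT and 8 KO cells.

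Receptors per cell were counted at the thinned depth. Neutrophil-like cells carried the most among classes of 50 or more cells, with a mean of 2.76 of the 9 receptors in WT and 2.81 in KO, and 63.2% and 62.0% had the set *Ccr1*, *Cxcr2* and *Cxcr4*. Classical monocyte-like cells had 2.502 and 2.45, and their leading set was *Ccr2*, *Cx3cr1* and *Cxcr4* (16.6% and 18.7%). Macrophage-like cells had 1.94 and 2.02 receptors, with *Ccr1* and *Cx3cr1* as the leading set (29.7% and 20.6%). Non-classical monocyte-like cells had 1.80 and 1.87, with *Cx3cr1* and *Cxcr4* leading (27.7% and 28.9%). B cell-like cells had 1.93 and 1.86 and T cell-like cells 1.253 and 1.36, the lowest of these classes, with *Ccr7* alone in 27.8% and 42.5% of the latter. A receptor below 1 UMI at this depth is not counted, so these are lower limits for what a cell transcribes.

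The study asked how the loss of LYVE-1 alters immune cells of the injured neonatal heart, and the receptors were compared between the libraries within 7 groups of classes. Ratios are KO over WT on the log2(CPM + 10) scale, which understates differences of low genes. Of 63 pairs of a receptor and a group, 35 had 50 or more UMIs, and the median size of their log2 ratio was 0.23. Only *Ccr2* in macrophage-like cells was at 1 or more in size, 1 of the 6 receptors with enough UMIs there, where 0.449% of 12478 genes were (direction either way). No receptor reached 1 in classical monocyte-like (0.296% of 9121 genes did), non-classical monocyte-like (0.487% of 8420), neutrophil-like (0.968% of 6198), B cell-like (0.612% of 9966) or T cell-like cells (3.0% of 9473), or in the combined NK, ILC2 and gamma-delta T cell-like cells (0.911% of 7906). *Ccr2* in macrophage-like cells was just past that size, at 1.01, and was under it in 8 of 9 alternatives. *Ccr9* in T cell-like cells was past it in 1, at −1.02 as a mean over cells. The interval excluded 0 for 22 of the 35 pairs, 11 up and 11 down, which is a statement on counting error and not on hearts. The share of all genes with such an interval was not counted, so these numbers have no background to be read against.

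In macrophage-like cells *Ccr2* was at 123 (WT) and 257 CPM (KO), a log2 ratio of 1.01 (0.95 to 1.06). *Cx3cr1* was at 668 and 504 CPM, a log2 ratio of −0.40 (−0.43 to −0.37). Cluster shares moved with both, since the *Spp1* cluster was 13.2% and 25.1% of the class. Each cluster was then given the same weight in both libraries, the mean of its shares of the class UMIs in WT and KO (called equal weights). At equal weights the log2 ratio was 0.40 for *Ccr2* and −0.0017 for *Cx3cr1*. Within clusters the log2 ratio of *Ccr2* was positive in 4 of the 9, as in the *Spp1* (0.30) and *Fcrls* (1.003) clusters. It was negative in 5, as in the *Fcna* (−0.69) and *Saa3* (−0.48) clusters. The *Spp1* and *Fcrls* clusters gave 70.7% and 12.9% of the *Ccr2* UMIs of the class in WT, and 83.6% and 8.78% in KO. No cluster with a negative ratio gave more than 5.19% in WT or 1.48% in KO. *Cxcr4* in macrophage-like cells was at 160 and 194 CPM, with a log2 ratio of 0.26 (0.21 to 0.32) and 0.063 at equal weights, and *Ccr1* had −0.074 (−0.12 to −0.027).

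In monocyte-like cells *Ccr2* differed less. In classical monocyte-like cells, a single cluster, *Ccr2* had a log2 ratio of 0.0072 (−0.043 to 0.057) and *Cxcr4* of 0.0029 (−0.078 to 0.084), *Ccr1* was lower in the KO library by −0.40 (−0.53 to −0.28) and *Cx3cr1* higher by 0.18 (0.059 to 0.31). In non-classical monocyte-like cells *Cx3cr1* was higher by 0.37 (0.27 to 0.47), also 0.37 at equal weights. Its log2 ratio was 0.42 in the *Ace* cluster and −0.22 in the cluster with *Ldlrad3*. *Cxcr4* in non-classical monocyte-like cells was lower by −0.21 (−0.30 to −0.11). *Ccr1*, low in these cells at 14.3 and 7.40 CPM, had −0.48 (−0.83 to −0.13). *Ccr2* there was at −0.068 (−0.20 to 0.064), from 0.25 in the *Ace* cluster and −1.28 in the cluster with *Ldlrad3*. *Cx3cr1* thus had positive log2 ratios in both monocyte-like classes, against −0.40 in macrophage-like cells, or −0.0017 there at equal weights, and a difference between classes could not be tested with 1 library per genotype.

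In neutrophil-like cells *Cxcr2* had a log2 ratio of 0.060 (−0.016 to 0.14) and *Cxcr4* of −0.052 (−0.15 to 0.048). *Ccr1* was lower, at −0.20 (−0.28 to −0.12), or −0.11 at equal weights, where the *Cstdc4* cluster with the highest *Ccr1* was 22.5% of the class in WT and 12.5% in KO. *Cx3cr1*, low in these cells at 6.71 and 18.5 CPM, had 0.77 (0.38 to 1.13). In B cell-like cells all 3 abundant receptors were lower in the KO library: *Cxcr4* by −0.44 (−0.56 to −0.32), *Ccr7* by −0.22 (−0.28 to −0.16) and *Cxcr5* by −0.13 (−0.23 to −0.043). At equal weights the values were −0.40, −0.19 and −0.14. By cluster, *Ccr7* was at −0.44 in the cluster with the lower level of B-1 cell genes and at 0.091 in the other. *Cxcr4* and *Cxcr5* had negative log2 ratios in both clusters.

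In T cell-like cells the ratios of *Ccr7* and *Ccr9* were large, and cluster shares moved with them. *Ccr7* was at 282 (WT) and 547 CPM (KO), a log2 ratio of 0.93 (0.84 to 1.03), and *Ccr9* at 98.5 and 56.2 CPM, a log2 ratio of −0.71 (−0.90 to −0.52). The *Dntt* cluster gave 62.4% of the UMIs of the class in WT and 26.9% in KO. At equal weights the ratio was −0.024 for *Ccr7*, with the sign turned, and −0.20 for *Ccr9*. *Cxcr4* was at 124 CPM in both, with a log2 ratio of −0.0089 (−0.16 to 0.15). Among receptors low in this class, *Ccr2* had 0.67 (0.37 to 0.94) and *Cxcr6* 0.64 (0.34 to 0.93), or 0.69 and 0.51 at equal weights. *Cxcr5*, also low, had 0.26 (−0.046 to 0.54). By cluster, *Ccr2* was at 1.58 in the *Dntt* cluster, from 1 WT and 30 KO UMIs, and *Cxcr6* at 1.71, from 1 and 34. In the *Lef1* and *Cd8b1* clusters *Ccr2* was at 0.17 and −0.026, and *Cxcr6* at −0.71 and 0.16. In NK, ILC2 and gamma-delta T cell-like cells together, *Cxcr6* had 0.0056 (−0.089 to 0.10) and *Ccr2* 0.057 (−0.076 to 0.19). *Cxcr4* had 0.24 (0.038 to 0.45) there, and *Cx3cr1*, low at 6.03 and 13.5 CPM, 0.55 (0.11 to 0.95). *Ccr7* had 0.12 (−0.27 to 0.50) and *Ccr9* −0.23 (−0.59 to 0.14). The parts of this group differed. In ILC2-like, gamma-delta T cell-like and NK cell-like cells *Ccr9* was at −1.03, 1.28 and −1.71, and *Cx3cr1* at −0.41, −0.10 and 1.36. Of the 39 KO *Cx3cr1* UMIs of the group, 1 cell gave 15. A difference between hearts of either pool cannot be told apart from a difference between genotypes in any of these values.

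**Figure D5:**
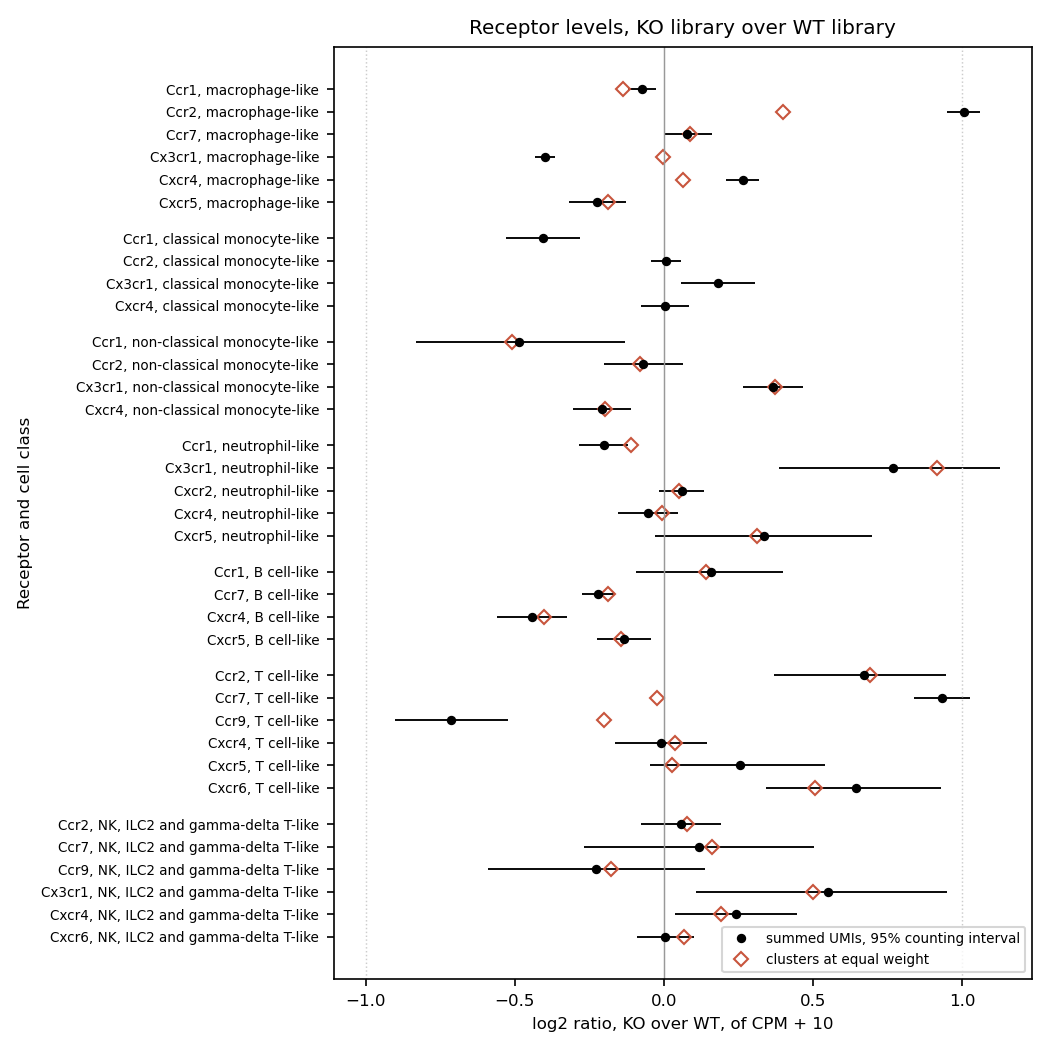
Log2 ratio of KO over WT of CPM + 10 (x axis) for the 35 pairs of a receptor and a class with 50 or more UMIs. Points are from summed UMIs with 95% counting intervals. Open diamonds give each cluster of a class the same weight in both libraries, and these weights differ between clusters. *Ccr2* in macrophage-like cells lay at 1.01 and its diamond at 0.40, and for *Ccr7* in T cell-like cells the values were 0.93 and −0.024.

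The rest of the receptor family was counted from 14 genes, all in the tables, of which 7 reached 10 CPM in some class of both libraries. *Xcr1*, *Ccr4* and *Ccr8* had most of their UMIs in their leading class in both libraries, whereas *Cxcr3* and *Ccr6* did not. *Xcr1*, the receptor of cross-presenting dendritic cells, was at 255 (WT) and 199.5 CPM (KO) in conventional DC 1-like cells. *Ccr4* (268 and 227 CPM) and *Ccr8* (245 and 402 CPM) peaked in ILC2-like cells, *Cxcr3* in NK cell-like cells (149 and 148 CPM) and *Ccr6* in gamma-delta T cell-like cells (87.8 and 60.7 CPM), followed by B cell-like cells (58.4 and 53.6 CPM). The atypical receptor *Ccrl2*, which binds chemerin without signaling, was at 730 and 337 CPM in neutrophil-like and 290 and 337 CPM in macrophage-like cells. *Ackr3*, a scavenger of CXCL12, was at 11.6 and 20.3 CPM in macrophage-like cells. *Ccr3*, *Ccr10*, *Ccr1l1*, *Cxcr1*, *Ackr1*, *Ackr2* and *Ackr4* stayed under 10 CPM in at least 1 library of each class.

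Ligands of the receptors were read from a list of 21 genes, of which 16 reached 10 CPM in some class of both libraries. Transcripts of the CCR2 ligands were abundant in macrophage-like cells, with *Ccl2* at 712 and 611 CPM, *Ccl7* at 544 and 569 CPM, *Ccl12* at 377 and 239 CPM and *Ccl8* at 55.8 and 117 CPM. Among CXCR2 ligands, *Cxcl2* was at 4081 and 1685 CPM in neutrophil-like and 2347 and 2618 CPM in macrophage-like cells, and *Cxcl1* at 242 and 325 CPM in macrophage-like cells. Ligands of CCR1 were abundant in mast cell or basophil-like cells (*Ccl3* at 7581 and 4878 CPM, *Ccl6* at 6410.2 and 3331 CPM) and in NK cell-like cells (*Ccl5* at 5478 and 5030.1 CPM, against 7036 and 641 CPM in mature DC-like cells). *Cxcl16*, the CXCR6 ligand, was at 253 and 215 CPM in macrophage-like and 906 and 360 CPM in mature DC-like cells. *Cx3cl1* had its highest level in gamma-delta T cell-like cells, at 59.1 and 27.5 CPM from 31 and 19 UMIs. *Cxcl5*, *Cxcl12*, *Cxcl13*, *Ccl19* and *Ccl21a* stayed under 10 CPM in at least 1 library of each class, in cells that were sorted for CD45 and so hold few stromal cells.

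Genes with the most similar pattern were found by Pearson correlation of log2(CPM + 10) over the 6 classes of 50 or more cells in each library, in a set of 10831 genes, a description over few points that share their libraries. *Cx3cr1* was closest to *Itgb5* (r = 0.998), *Ctsb* (0.997) and *Fmn1* (0.994). *Cxcr2* was closest to *Cstdc5*, *Klra17* and *Retnlg* (each 0.999 or more), *Ccr2* to *Htatip2* (0.991) and *Ccr1* to *Pgam1* (0.992). Over 23 clusters the closest were *Daglb* for *Cx3cr1* (0.942), *Csta3* for *Cxcr2* (0.995), *Pou2af1* for *Cxcr5* (0.920), *Sit1* for *Ccr9* (0.958), *Pdcd1* for *Cxcr6* (0.977) and *Cyp4f16* for *Ccr2* (0.781).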

How the data were processed

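Single-cell RNA was measured in live CD45+ heart cells, 1 library per genotype, made with the GEM-X 5′ kit of 10x Genomics. The authors deposited raw counts, UMIs per gene and cell barcode, made with Cell Ranger 8.0.1 on mm10 per the submitters' processing notes. Members and lists were chosen with earlier results of these data known. Cells with at least 500 genes, 250 UMIs and at most 30% mitochondrial UMIs were kept. The automatic doublet call (scrublet in scanpy 1.11.5) marked 1 WT and 4 KO barcodes, so the 98 and 73 with the highest scores, 0.4% per 1000 barcodes, were left out. Demultiplexing of the pooled hearts by genotype, done in the study from reads, was not used here. Log normalization, CCA integration (2000 variable genes without chemokine receptors, 30 dimensions) with cell cycle scores regressed out, and clustering (k = 20, resolution 0.8) were done in Seurat 5.3.0 (R 4.3.3), and mononuclear phagocytes and T or innate lymphoid cells were clustered again. A name needed 3 markers in 25% of cells, and unnamed clusters of low depth were under 1/3 of the library median. Names were rebuilt here and can differ from those of the study. Thinning to 5500 UMIs follows the 10th percentile of named cells. Genes with 50 UMIs in a class entered the background. Python 3.11.15, numpy 2.4.6, scipy 1.17.1 and pandas 2.3.3 were used. The ratio and thinning steps were tested on simulated data. The genes named are the 9 receptors, the other receptors and the ligands listed, genes leading a cluster, and the 3 most similar genes per receptor, of which examples are given. 1 item is not reported here.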

Additional observations from a re-analysis of the deposited data

How the results depend on the processing

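How marker lists were scored was decided with the data in view, and equal cluster weights were chosen after seeing the data. No paired analysis was possible because each genotype had 1 library and the result comes from no test. Of 97 alternative values of the 11 main results, 82 stayed within counting error of the main value. For the shares with both transcripts the main value came from a separate random draw of the thinning. It was 17.7% in WT and 26.2% in KO, beside the reported 18.5% and 26.0%. With no doublets left out, the log2 ratio was 0.94 for *Ccr2* in macrophage-like cells and −0.29 for *Ccr9* in T cell-like cells, and the KO share of macrophage-like and monocyte-like cells with both *Ccr2* and *Cx3cr1* was 29.1%. Without regression of the cell cycle, *Ccr7* in T cell-like cells was at 0.80. As a mean over cells of each cell's CPM, the ratio was 0.91 for *Ccr2* and −0.29 for *Cx3cr1* in macrophage-like cells, and 0.31 for *Ccr7* and −1.02 for *Ccr9* in T cell-like cells. Without thinning, the shares with both transcripts were 26.8% in WT and 37.9% in KO. With clusters at equal weight in both libraries, the ratios in macrophage-like cells were 0.40 for *Ccr2* and −0.0017 for *Cx3cr1*. The ratio was −0.11 for *Ccr1* in neutrophil-like cells. In T cell-like cells it was −0.024 for *Ccr7*, with its sign turned, and −0.20 for *Ccr9*. Ratios with an interval around 0, *Cxcr4* in T cell-like cells and *Cxcr6* in the combined NK, ILC2 and gamma-delta T cell-like cells, also changed sign under some alternatives, within counting error. Equal cluster weights hold cluster shares the same in both libraries, so by construction these ratios leave out the difference in cluster shares. The cause of the other changes was not tested. Among classes of 20 or more cells in both libraries, which leaves out plasmacytoid and mature DC-like and mast cell or basophil-like cells, the class with the highest level of a receptor was the same in 62 of 63 checks, the exception being *Ccr9* without regression of the cell cycle. Classes of few cells, such as plasmacytoid DC-like (16 and 11) and mature DC-like cells (22 and 5), limit how far their levels can be read.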

Other observations

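Receptors were also present in cells left without a name. A cluster led by *Ctla4*, *Gzmb*, *Ikzf2* and *Foxp3*, genes of regulatory T cells and cytotoxic cells (49 WT and 39 KO cells), was nearest to T cells but took no name, since its 10 leading genes held more NK cell than T cell markers. Its *Ccr2* was at 294 (252–341, WT) and 342 CPM (299–389, KO), its *Ccr7* at 388 CPM (339–441) and 106 CPM (82.8–134) and its *Cxcr6* at 128 CPM (100.3–160) and 71.7 CPM (52.8–95.03). Compared with T cell-like cells, at 4.23 and 12.6 CPM, *Ccr2* was high in that cluster in both libraries.

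A low-depth cluster led by *Ace* (149 WT and 102 KO cells, medians 1182 and 1405.5 UMIs) had *Ccr2* at 493 and 318 CPM and *Cx3cr1* at 361 and 326 CPM. A low-depth cluster led by *Pf4* and *C1qa* (242 and 40 cells) had *Cx3cr1* at 675 and 439 CPM and *Ccr2* at 79.1 and 89.2 CPM. A low-depth cluster led by *Ebf1* and *Pax5* (97 and 52 cells) had *Cxcr5* at 271 and 298 CPM. A small unnamed cluster led by *Ccl22* and *Cxcl9* (17 and 3 cells) had *Ccr7* at 2089 (WT) and 12.2 CPM (KO), the latter from 1 UMI.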
